A study of Mus musculus with 6 samples.

Results

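The milk protein genes *Csn1s1*, *Csn1s2a*, *Csn2*, *Csn3*, *Wap*, *Lalba*, *Glycam1*, *Mfge8*, *Muc1* and *Xdh* were followed in sorted mammary cells of female mice, before lactation. These 10 genes were chosen by name and found by their Ensembl identifiers among the 54418 gene rows. The cells came from 3 WT and 3 *Glis2* KO females of 4 weeks of age on the C57BL/6 strain. The KO mice carry a germline mutation of *Glis2*, present in every tissue and not only in the mammary epithelium. The study describes the cells as mammary epithelial cells, and the suspensions were stained for TER-119, CD31, CD45, CD24 and CD49f, before FACS. Which CD24 and CD49f fraction was kept is not given in the sources used here. Total RNA of each mouse gave 1 library, and the totals lay between 24996524 and 31393917 estimated counts per library.

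Milk proteins fall into caseins, whey proteins and proteins of the milk fat globule membrane. The calcium-sensitive caseins (*Csn1s1*, *Csn1s2a* and *Csn2*) and κ-casein (*Csn3*), which covers the surface of the micelle and keeps it in solution, carry calcium and phosphate. Prolactin acts through its receptor, JAK2 and STAT5, together with glucocorticoids and insulin, to induce these genes in alveolar luminal cells during pregnancy and lactation. In the virgin gland, luminal progenitor cells are the closest relatives of the alveolar cells.

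At this age the 10 genes were far from equal. *Csn3* and *Mfge8* had at least 3823 counts in every library, *Csn1s1*, *Muc1* and *Lalba* had at most 199 counts, and *Csn2*, *Csn1s2a* and *Wap*, which are abundant in mouse milk, were at 0 or 1 count. No member passed the test between genotypes. *Glycam1* was higher in each KO library than in each WT library and spanned a 790.2-fold range over the 6 mice.

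The promoters of members with and without counts are shown so that motifs of the lactogenic factors can be read beside the counts. RefSeq start sites on GRCm38.p6 were matched for 8 of the 10 genes, all but *Csn3* and *Xdh*. Each run below ends at the base before the start site and is written 5′ to 3′ on the strand of the gene. Capitals mark the STAT consensus TTCNNNGAA, or the NFI half-site TTGGCA on either strand.
*Csn1s1*, chr5:87666088-87666207, plus strand: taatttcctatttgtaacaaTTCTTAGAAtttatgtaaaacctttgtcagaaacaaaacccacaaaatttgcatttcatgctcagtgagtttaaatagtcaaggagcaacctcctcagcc
*Csn2*, chr5:87699426-87699545, minus strand: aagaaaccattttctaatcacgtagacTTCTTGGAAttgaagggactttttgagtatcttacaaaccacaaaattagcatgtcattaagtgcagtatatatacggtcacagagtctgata
*Wap*, chr11:6638650-6638769, minus strand: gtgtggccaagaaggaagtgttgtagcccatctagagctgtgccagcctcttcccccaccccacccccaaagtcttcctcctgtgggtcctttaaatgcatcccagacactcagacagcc
*Lalba*, chr15:98482684-98482803, minus strand: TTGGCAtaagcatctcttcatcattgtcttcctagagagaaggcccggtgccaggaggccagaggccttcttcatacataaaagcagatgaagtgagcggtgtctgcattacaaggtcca
*Glycam1*, chr15:103565082-103565251, minus strand: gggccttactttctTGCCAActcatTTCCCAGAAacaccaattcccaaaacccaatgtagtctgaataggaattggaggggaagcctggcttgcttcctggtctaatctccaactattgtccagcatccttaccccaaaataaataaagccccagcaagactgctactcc

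In the whole window of 250 bases before to 50 bases after the start site, TTCNNNGAA was found in 4 of the 8 promoters and in 8.3% of the 32851 promoters of the RefSeq table. It lay 100 bases upstream in *Csn1s1*, 93 bases upstream in *Csn2* and 145 bases upstream in *Glycam1*, and began at base 21 of the transcript in *Csn1s2a*. TTGGCA was found in 2 of the 8, *Lalba* and *Glycam1*, and in 14.1% of all promoters, and the C/EBP motif TTGCNNAA in 0 of the 8 and in 10.8% of all. Both strands were searched, and the marked motifs do not overlap. A match describes these letters only: of the 4 genes with the STAT consensus, *Csn2* and *Csn1s2a* had at most 1 count while *Glycam1* reached 18178.

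*Csn3* (ENSMUSG00000001622, chr5:87925579-87932665) was the one casein with high counts. It had 5570, 13418 and 7367 counts in the WT libraries and 4360, 7418 and 3823 in the KO libraries. WT replicate 2 stood highest and KO replicate 3 lowest, and the genotypes overlapped. After TMM normalization, *Csn3* stood at 311 ± 146.6 CPM (counts scaled to the effective library size; SD, n = 3) in WT and 181.3 ± 63.1 CPM (SD, n = 3) in KO cells. The log2 fold change of *Csn3*, KO minus WT, was −0.78 (standard error 0.35, 95% interval −1.58 to 0.02, adjusted p = 0.906, edgeR's quasi-likelihood test with Benjamini-Hochberg adjustment over 21236 genes). Without WT replicate 2 it was −0.35.

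*Csn1s1* (ENSMUSG00000070702, chr5:87666208-87682578), αS1-casein, had 100, 164 and 60 counts in WT and 75, 145 and 102 counts in KO libraries, with full overlap. Between genotypes it differed by −0.024 on the log2 scale (standard error 0.41, 95% interval −0.97 to 0.92, adjusted p = 0.998 in edgeR), and the sign turned without WT replicate 2, KO replicate 1 or KO replicate 3. *Csn2* (ENSMUSG00000063157, chr5:87692624-87699630), β-casein, had 1 count in WT replicate 2, 1 in KO replicate 2 and 0 in the other 4 libraries. *Csn1s2a* (ENSMUSG00000061937, chr5:87774567-87788797), a casein of the αS2 type, had 0 counts in all 6 libraries. A count of 0 allows up to 3 counts, which is 0.0959 to 0.12 CPM per library and covers counting error only. Thus κ-casein was well counted in mice in which the calcium-sensitive caseins, whose micelles it stabilizes, were at 164 counts or fewer, or not detectable at this depth.

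**Figure D1:**
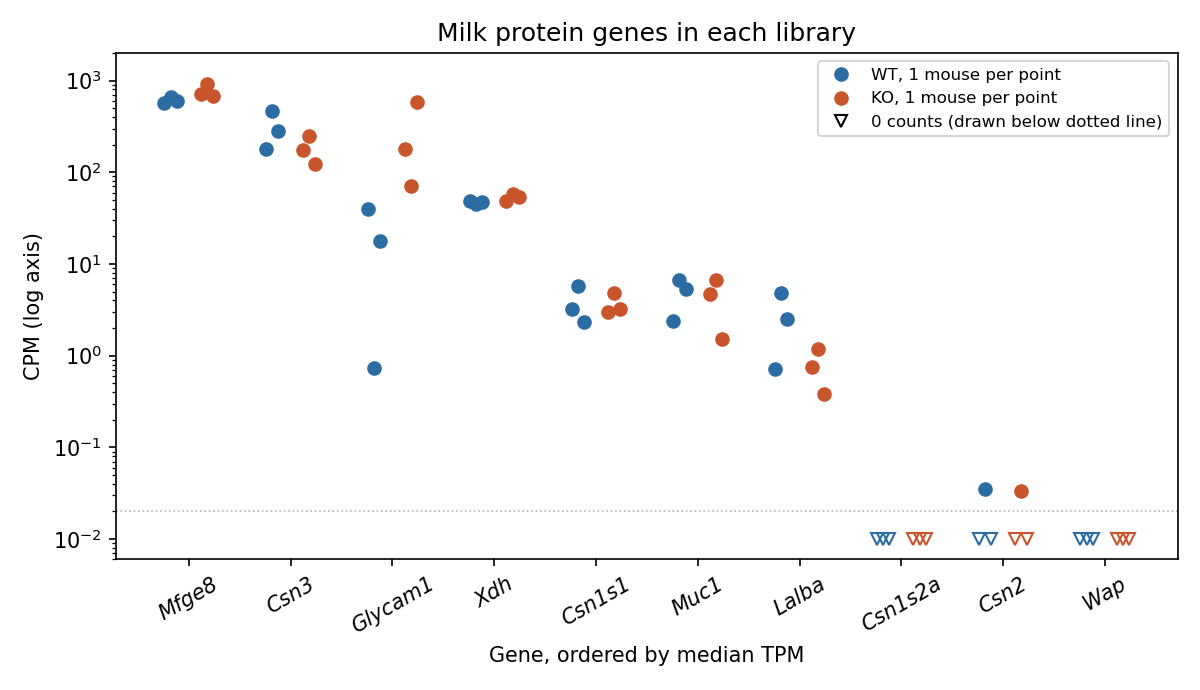
Points give the CPM (log axis) of each of the 10 genes in each library, with WT mice in blue, KO mice in orange, genes ordered by their median TPM, and open triangles for libraries with 0 counts. *Mfge8* and *Xdh* hold narrow ranges, *Glycam1* spans 0.735 to 580.9 CPM, and *Csn1s2a* and *Wap* are at 0 counts in all 6 libraries.

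On the TPM scale, which is a level per transcript length, *Csn3* made up between 95.2% and 99.0% of the 4 caseins in a library and *Csn1s1* between 1.01% and 4.75%. The 4 caseins together held between 0.0125% and 0.0475% of all counts of a library, lowest in KO replicate 3 and highest in WT replicate 2. The caseins lie together on chromosome 5, where *Csn1s1*, *Csn2*, *Csn1s2a*, *Csn1s2b* and *Csn3* span 266 kb on GRCm38. Of the 13 annotated genes of this span that have a row, 10 had under 20 counts in every library. The other 3 were *Csn1s1*, *Csn3* and *Odam*, an ameloblast-associated gene that lies between the αS2 caseins and *Csn3* and had 0 to 25 counts. *Csn1s2b*, the second αS2-like casein, had 3, 2 and 0 counts in WT and 18, 9 and 3 counts in KO libraries, too few to be tested, and reads that it shares with *Csn1s2a* could have been assigned to either. The antisense gene 1700066N21Rik, which overlaps *Csn3* on the other strand, had 0 counts. High counts in this span thus lay at its *Csn3* end, and the nearest 3 protein-coding genes on each side had 11 counts or fewer.

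**Figure D2:**
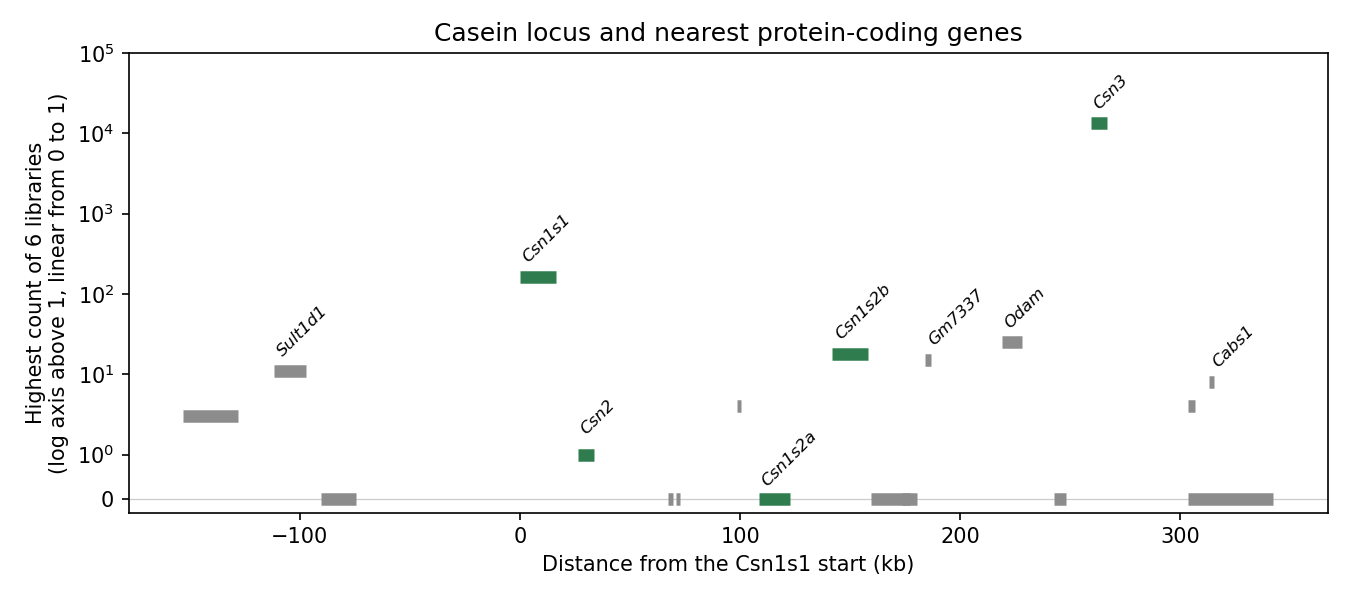
Each segment is an annotated gene, drawn from its first to its last base (the shortest widened to 2 kb) in kb from the start of *Csn1s1* (horizontal axis) at its highest count over the 6 libraries (vertical axis, logarithmic above 1), with caseins in green and other genes in grey. *Csn3* reaches 13418 counts and *Csn1s1* 164, while *Csn2* reaches 1 and *Csn1s2a* stays at 0.

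The whey protein genes *Wap* and *Lalba* had low counts. *Wap* (ENSMUSG00000000381, chr11:6635482-6638637), whey acidic protein, had 0 counts in all 6 libraries. *Lalba* (ENSMUSG00000022991, chr15:98480400-98482721), α-lactalbumin, which directs the galactosyltransferase B4GALT1 to make lactose, had 22, 139 and 66 counts in WT libraries and 19, 35 and 12 counts in KO libraries. As for *Csn3*, WT replicate 2 was highest and KO replicate 3 lowest, and WT replicate 1 lay within the KO range. *Lalba* stood at 2.70 ± 2.08 CPM (SD, n = 3) in WT and 0.770 ± 0.393 CPM (SD, n = 3) in KO cells, a log2 fold change of −1.81 (standard error 0.74, 95% interval −3.50 to −0.11), with an unadjusted p of 0.0395 and an adjusted p of 0.906 in edgeR. Without WT replicate 2 the log2 fold change was −1.07, and with the deposited log2(TPM + 1) values in limma it was −0.64. Its partner in lactose synthesis, *B4galt1*, which every cell uses for glycosylation, stood between 39.1 and 60.3 CPM and overlapped between genotypes.

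The extremes of *Csn3* and *Lalba* fell in the same mice as those of the summed luminal progenitor markers. The summed level of *Kit*, *Elf5*, *Aldh1a3*, *Cd14* and *Itgb3* was 307.6, 689.5 and 420.8 CPM in WT and 451.7, 679.4 and 269.2 CPM in KO libraries, so that it too was highest in WT replicate 2 and lowest in KO replicate 3, and overlapped. Of the 5 markers, *Aldh1a3* alone had both extremes in these mice, *Kit* and *Elf5* were highest in KO replicate 2, and *Itgb3* was lowest in WT replicate 2. These extremes were not particular to progenitor markers. In CPM, *Krt8*, *Epcam* and *Cldn7* of the luminal list also had both in these mice, *Krt8* with WT replicate 1 about as low. So did *Foxa1* and *Cited1* of the hormone-sensing luminal list, while the other genes of both lists did not. In sorted bulk cells, fewer cells of a type and less RNA per cell cannot be told apart. Set against the luminal keratins *Krt8*, *Krt18* and *Krt19*, *Csn3* had 66.4, 109 and 80.2 counts per 1000 keratin counts in WT and 46.6, 56.2 and 43.7 in KO libraries. *Lalba* had 0.262, 1.13 and 0.719 in WT and 0.203, 0.265 and 0.137 in KO libraries on the same scale. Each KO library lay below each WT library for *Csn3*, while for *Lalba* KO replicate 2 and WT replicate 1 were about equal. On normalized log2 levels with a small prior count both genes were below in each KO library, as were 2.75% of all genes tested, and *Glycam1* was above, as were 2.2%. The difference of mean log2 levels relative to the keratins was −0.79 for *Csn3* and −1.54 for *Lalba*, with an unadjusted p of 0.00899 and 0.0367 (2.16% of all genes had one under 0.05) and an adjusted p of 1 each in limma, in which 0.00471% of all genes were called. The 2-sided exact permutation p was 0.1 for each, the smallest that 3 mice against 3 allow. Relative to the 5 progenitor markers, a scale chosen after seeing the data, each KO library again lay below each WT library, with differences of −0.61 and −1.36, as did 0.697% of all genes (exact permutation p = 0.1 each, 2-sided). No member lay above in each KO library, beside 1.78% of all genes. This scale moved the median of all genes by 0.136, against which these differences are to be read.

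**Figure D3:**
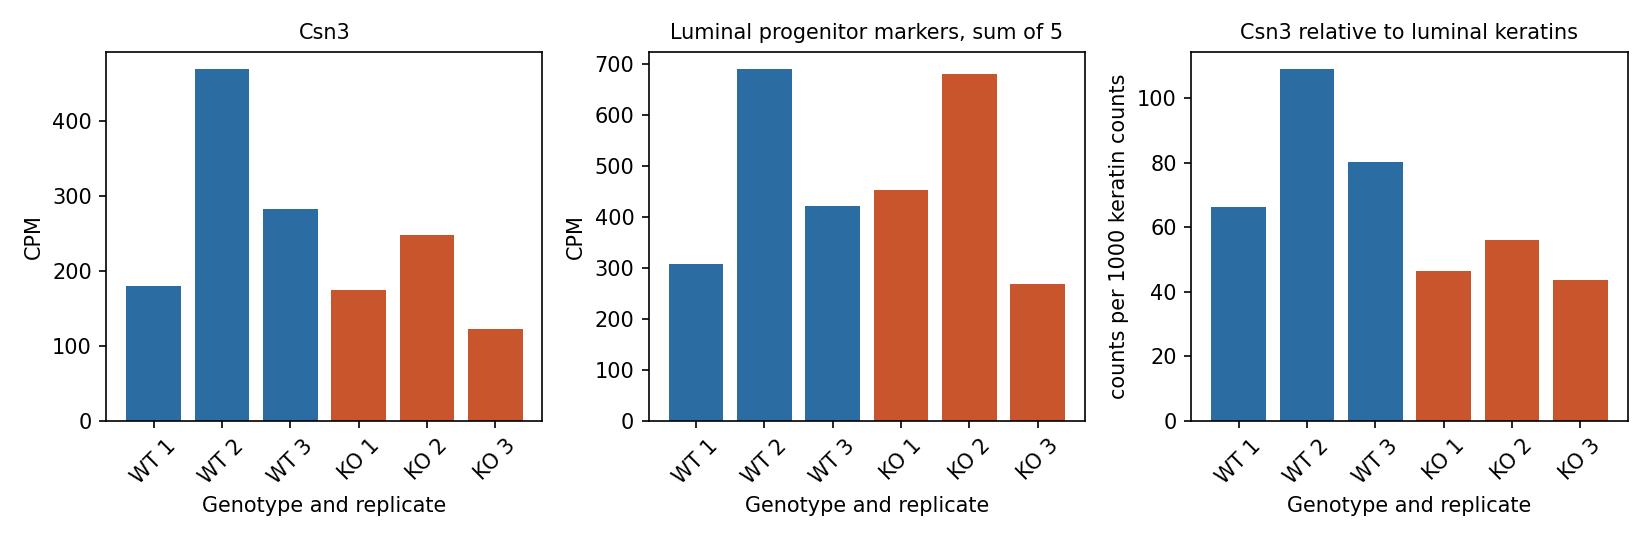
Bars give, for each library, the CPM of *Csn3* (left), the summed CPM of 5 luminal progenitor markers (middle) and the *Csn3* counts per 1000 counts of *Krt8*, *Krt18* and *Krt19* (right), with WT in blue and KO in orange. The first pair of panels overlaps between genotypes, and on the right the KO libraries (43.7 to 56.2) lie below the WT libraries (66.4 to 109).

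*Glycam1* (ENSMUSG00000022491, chr15:103562759-103565081) encodes a mucin-like glycoprotein that is secreted into milk and is also the sulphated L-selectin ligand of high endothelial venules, the vessels through which lymphocytes enter lymph nodes. It had 1221, 21 and 461 counts in WT libraries and 4494, 2122 and 18178 counts in KO libraries. Each KO library lay above each WT library, as did 6.23% of all genes tested. The means were 19.3 ± 19.5 CPM (SD, n = 3) in WT and 277.1 ± 268.6 CPM (SD, n = 3) in KO cells, so that the SD was about as large as the mean in each genotype. The log2 fold change was 3.84 (standard error 1.15, 95% interval 1.21 to 6.47), with an unadjusted p of 0.00954 and an adjusted p of 0.906 in edgeR. With no filter on low counts edgeR gave *Glycam1* an adjusted p of 0.00779, and DESeq2 gave 0.493. Without KO replicate 3 the log2 fold change was 2.68, and without WT replicate 1 it was 4.91.

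Markers of high endothelial venules were read beside *Glycam1*, and all 4 overlapped between genotypes. *Chst4*, the sulphotransferase that modifies L-selectin ligands there, had 54, 0 and 1 counts in WT and 78, 27 and 382 counts in KO libraries. *Fut7*, the fucosyltransferase of the same ligands, had 45, 22 and 12 counts in WT and 63, 25 and 259 counts in KO libraries. As for *Glycam1*, KO replicate 3 was far above the others for both genes. *Ccl21a*, a chemokine, had 871, 147 and 466 counts in WT and 841, 292 and 2460 counts in KO libraries. *Madcam1*, an adhesion molecule, had 23, 4 and 44 counts in WT and 17, 30 and 58 counts in KO libraries. None of the 4 markers followed *Glycam1* in its full order of mice. In CPM, KO replicate 2 lay below WT replicate 1 for *Chst4*, *Fut7* and *Ccl21a*. The 4 markers of the list (*Madcam1*, *Chst4*, *Fut7* and *Ccl21a*) had log2 fold changes above 0 in 4 of 4 cases, as had 10961 of all 21236 genes, with a median of 1.68. In edgeR 1 of 4, *Fut7*, was higher at an unadjusted p under 0.05 (beside 2.99% of all genes), and 0 of 4 passed. Their summed level was 6.05 to 32.2 CPM in WT and 12.5 to 100.9 CPM in KO libraries, with KO replicate 2 below WT replicates 1 and 3, and *Chst4* was the one marker at 0 in a library, WT replicate 2. Single leukocyte genes were looked at after their values were seen. *Ptprc*, which encodes CD45, had 340, 228 and 252 counts in WT and 370, 435 and 1212 counts in KO libraries. In CPM each KO library lay above each WT library for *Ptprc* (log2 fold change 1.25) and for the B cell gene *Cd79a* (2.08), as for 6.23% of all genes. Each had an adjusted p of 0.906 in edgeR. The T cell genes *Cd3e* (1.17) and *Cd3g* (1.78) and the B cell gene *Ms4a1* (1.03) had log2 fold changes above 0 and overlapped, and *Cd3g* was at 0 in WT replicate 3. *Ptprc* and *Cd79a* were highest in KO replicate 3, as *Glycam1* was.

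General endothelial markers overlapped between genotypes. The sum of *Pecam1*, *Cdh5*, *Kdr* and *Tie1* was 578.5, 106.4 and 420.2 CPM in WT and 372.5, 164 and 599.6 CPM in KO libraries, although CD31, the product of *Pecam1*, was stained in the sort. WT replicate 2, the lowest library for *Glycam1*, was also the lowest here, and KO replicate 3 the highest for both. WT replicate 1 and KO replicate 3 differed little in these markers and stood at 39.6 and 580.9 CPM for *Glycam1*. Per 100 endothelial marker counts, *Glycam1* had 6.84, 0.691 and 4.21 counts in WT and 48.2, 43.2 and 96.9 in KO libraries, a separation in this direction that 0.768% of all genes showed on this scale, which was chosen after seeing the data (exact permutation p = 0.1 for the difference of mean log2 levels, 2-sided). No member lay below in each KO library on it, beside 1.11% of all genes. The part of these vessel and leukocyte transcripts in the *Glycam1* values was not tested.

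**Figure D4:**
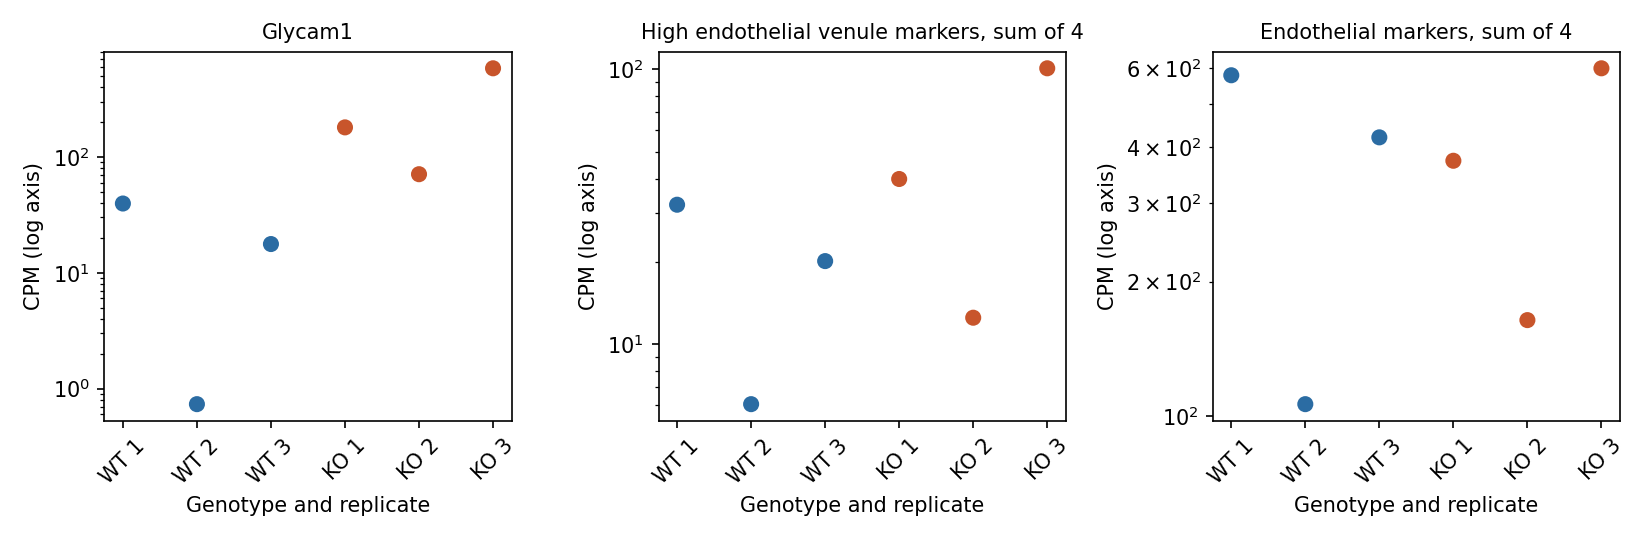
Points give the CPM (log axes, with a different range in each panel) of *Glycam1* (left), the sum of 4 high endothelial venule markers (middle) and the sum of 4 general endothelial markers (right) in each library, with WT in blue and KO in orange. WT replicate 2 is lowest and KO replicate 3 highest in each panel, and the genotypes separate only for *Glycam1*.

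Of the milk fat globule membrane genes, *Mfge8* and *Xdh* varied little between mice and *Muc1* varied 4.50-fold in CPM. *Mfge8* (ENSMUSG00000030605, chr7:79133768-79149060), lactadherin, which binds phosphatidylserine on globules and dying cells, had 17511, 18810 and 15454 counts in WT and 17824, 27188 and 21389 counts in KO libraries. In CPM each KO library of *Mfge8* lay above each WT library, although in TPM (72.2 to 90.4 in WT, 78.4 to 98.1 in KO) they overlapped. It stood at 606.3 ± 46.9 CPM (SD, n = 3) in WT and 767.8 ± 122 CPM (SD, n = 3) in KO cells. The log2 fold change was 0.34 (standard error 0.12, 95% interval 0.06 to 0.62), with an unadjusted p of 0.0236 and an adjusted p of 0.906 in edgeR. Without KO replicate 2 it was 0.20, in limma on log2(TPM + 1) it was 0.14, and relative to the keratins *Mfge8* differed by 0.27 and overlapped. The 8 basal cell markers summed to 4171 to 5470 CPM in WT and 5683 to 6830 CPM in KO libraries without overlap, with 8 of 8 log2 fold changes above 0, 5 of 8 higher at an unadjusted p under 0.05 (beside 2.99% of all genes), 2 of 8 without overlap (beside 6.23%) and 0 of 8 passing in edgeR. Within a genotype the order differed, since KO replicate 2 had the highest *Mfge8* and the lowest basal sum of the KO libraries. Their part in the *Mfge8* values was not tested.

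*Xdh* (ENSMUSG00000024066, chr17:73883895-73950196), the xanthine dehydrogenase that joins butyrophilin and perilipin 2 on the globule, had 1487, 1303 and 1227 counts in WT and 1212, 1753 and 1700 counts in KO libraries. It varied 1.28-fold over the 6 mice in CPM, the narrowest range of the members, with 47.0 ± 1.30 CPM (SD, n = 3) in WT and 53.8 ± 5.07 CPM (SD, n = 3) in KO cells. The KO libraries lay above the WT libraries, by as little as 48.4 CPM in KO replicate 1 against 48.2 CPM in WT replicate 1, and the log2 fold change was 0.20 (standard error 0.11, 95% interval −0.07 to 0.46, adjusted p = 0.930 in edgeR), or 0.12 without KO replicate 2. In TPM the same gene ran from 2.05 to 5.58, a 2.73-fold range, and the genotypes overlapped, as they did relative to the keratins. A pseudogene on the same strand inside *Xdh*, CT025731.2, had 12 to 76 counts. *Muc1* (ENSMUSG00000042784, chr3:89229057-89233381), the mucin of the apical luminal surface, had 73, 193 and 139 counts in WT and 118, 199 and 47 counts in KO libraries. Its groups overlapped, with a difference of −0.17 on the log2 scale (standard error 0.57, 95% interval −1.46 to 1.13, adjusted p = 0.985 in edgeR), and the sign turned without WT replicate 2 or KO replicate 3.

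**Figure D5:**
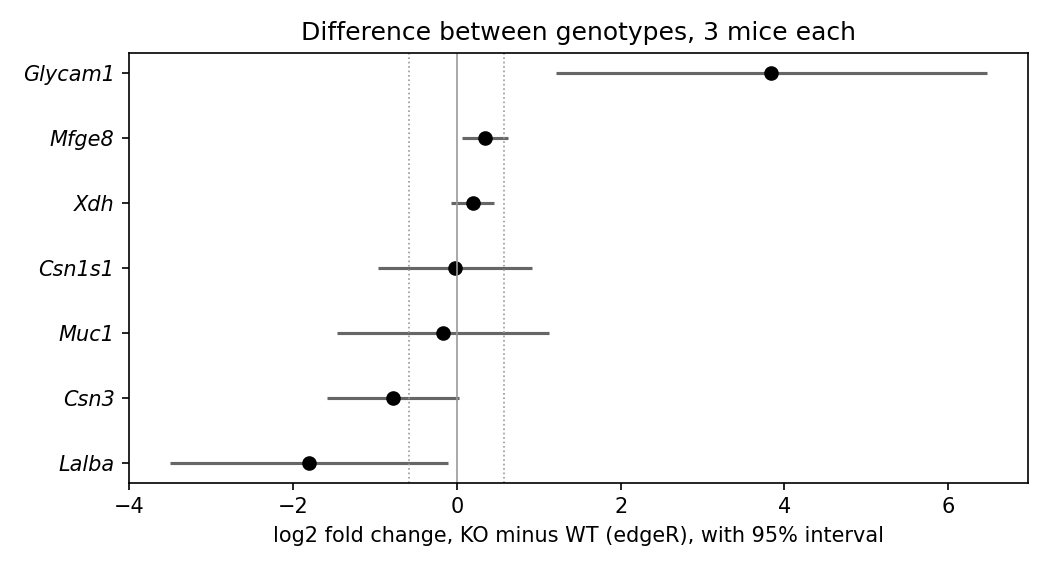
Points are log2 fold changes, KO minus WT, of the 7 genes tested in edgeR, bars are 95% intervals, and dotted lines mark an absolute log2 fold change of 0.58. *Glycam1* (3.84) and *Lalba* (−1.81) have the widest intervals, and *Mfge8* and *Xdh* the narrowest.

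In all, 7 of the 10 genes passed the filter on low counts and 3, *Csn2*, *Csn1s2a* and *Wap*, did not. A call needed an adjusted p no higher than 0.05 and a log2 fold change of 0.58 or more in size. By this rule 0 of the 7 were called in edgeR, beside 0% of all 21236 genes, and 0 were called in DESeq2 with apeglm, beside 0.167% of all genes. An unadjusted p under 0.05 was obtained in edgeR for *Lalba*, *Glycam1* and *Mfge8*, 3 of 7, beside 5.32% of all genes. *Glycam1* and *Mfge8* were higher (2.99% of all genes) and *Lalba* was lower (2.33%). The 3 genes without overlap between genotypes were *Glycam1*, *Mfge8* and *Xdh*, each higher in KO cells, beside 6.23% of all genes in this direction, and 0 of 7 were lower without overlap, beside 5.5%. The log2 fold changes of the 7 genes were above 0 for 3 and below 0 for 4, with a median of −0.024, beside 0.011 for all genes tested.

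Ordered by median TPM over the 6 libraries, *Mfge8* (86.6, range 72.2 to 98.1) came before *Csn3* (52.8, range 29.6 to 133) and *Glycam1* (24.6, range 0.388 to 257). These ranges overlap, and the order of the top 3 does not hold in every library. *Xdh* (3.53) lay below *Csn3* and above *Csn1s1* (1.14) in every library. *Csn1s1*, *Muc1* (0.625) and *Lalba* (0.337) overlapped in TPM. The TPM values are small because Gm23935, annotated as a microRNA gene, held 83.0% to 85.7% of the TPM of a library but 3.09% to 3.92% of its counts.

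Other genes of milk secretion formed a list of 25. Of 20 tested, 0 passed in edgeR and 0 had an unadjusted p under 0.05, and the median log2 fold change was −0.14. *Btn1a1*, butyrophilin, had 254, 1231 and 455 counts in WT and 351, 615 and 200 counts in KO libraries, again highest in WT replicate 2 and lowest in KO replicate 3, and differed by −0.75 (standard error 0.59, adjusted p = 0.941 in edgeR). *Plin2*, perilipin 2 of lipid droplets, differed by 0.10 (standard error 0.19, adjusted p = 0.977 in edgeR). The genes of this list with the smallest p were *Atp2c2*, a calcium and manganese pump of the secretory pathway (log2 fold change 0.63), *Fabp3*, a fatty acid binding protein (−2.40, with 33, 16 and 10 counts in WT and 0, 11 and 0 in KO libraries), *Slpi*, a secreted protease inhibitor (0.69), and *Spp1*, osteopontin (−0.61), with adjusted p of 0.906, 0.929, 0.930 and 0.941 in edgeR.

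*Prlr*, *Stat5a* and *Elf5*, which relay the lactogenic signal, were counted in every library, while *Csn2* had at most 1 count and *Wap* 0. *Prlr*, the prolactin receptor, had 17573, 27972 and 26099 counts in WT and 25407, 33807 and 14945 counts in KO libraries (0.040 on the log2 scale, standard error 0.32, adjusted p = 0.997 in edgeR). *Stat5a* differed by 0.28 (standard error 0.23, adjusted p = 0.941) and *Elf5*, the ETS factor of alveolar differentiation, by 0.10 (standard error 0.46, adjusted p = 0.991) in edgeR. Neither gene separated the genotypes. Of the 23 lactogenic signalling genes tested, 0 passed in edgeR and 1 had an unadjusted p under 0.05, a share near the 5.32% of all genes, with a median log2 fold change of 0.10. This gene was *Socs2*, a feedback inhibitor of growth hormone and prolactin signalling, at 35.0 ± 2.28 CPM (SD, n = 3) in WT and 26.7 ± 3.92 CPM (SD, n = 3) in KO cells (log2 fold change −0.39, adjusted p = 0.906 in edgeR). The next 3, *Igf1r* (0.19) and *Insr* (0.21), the receptors of IGF1 and insulin, and *Socs3* (0.17), had an adjusted p of at least 0.906 in edgeR. These 3 were higher in KO cells without overlap (beside 6.23% of all genes). Another 2 of the 23, *Socs2* among them, were lower without overlap (beside 5.5%).

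Of the 21 genes of milk fat and lactose synthesis, 0 passed in edgeR, 2 had an unadjusted p under 0.05 (beside 5.32% of all genes), 2, *Scd1* and *Dgat1*, were higher without overlap (beside 6.23%), and the median log2 fold change was −0.11. *Scd1*, the stearoyl-CoA desaturase, stood at 103.3 ± 2.32 CPM (SD, n = 3) in WT and 122.4 ± 3.92 CPM (SD, n = 3) in KO cells, without overlap (log2 fold change 0.24, adjusted p = 0.906 in edgeR). *Hk2*, a hexokinase, differed by −0.57, *Dgat1*, which completes triglycerides, by 0.46, and *Insig1*, a sterol sensor, by −0.53, each with an adjusted p of at least 0.906 in edgeR. *Fasn*, fatty acid synthase, differed by −0.061 (standard error 0.12, adjusted p = 0.977 in edgeR).

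The targeted gene *Glis2* was itself still counted, with 671, 663 and 510 counts in WT and 252, 509 and 510 counts in KO libraries (log2 fold change −0.57, unadjusted p = 0.0319, adjusted p = 0.906 in edgeR). In CPM each KO library (10.1 to 17.0) lay below each WT library (19.6 to 23.2), while in TPM (2.75 to 3.17 in KO, 2.08 to 4.19 in WT) they overlapped. The libraries also held other cell types: fibroblast markers summed to 2293 to 7727 CPM in WT and 2585 to 5884 CPM in KO libraries, macrophage markers to 20.5 to 42.0 CPM and adipocyte markers to 5.00 to 19.7 CPM over all 6. The luminal list (3109 to 5087 CPM in WT, 3164 to 5100 CPM in KO) and the hormone-sensing luminal list (1117 to 1905 CPM in WT, 1048 to 2011 CPM in KO) overlapped between genotypes, and 0 genes of the marker lists given here passed in edgeR.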

How the data were processed

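Sorted mammary cells of 3 WT and 3 *Glis2* KO mice were sequenced with 40-nt paired-end reads from a stranded total RNA kit that removes ribosomal fragments. The authors estimated counts per gene with Salmon 1.2.1 on an mm10 transcriptome and summed them with tximport. The deposited counts are whole numbers without scaling, and the second deposited table holds log2(TPM + 1). Reads shared by similar or overlapping genes were divided by the estimation. Of 54418 identifiers, 54166 matched the GENCODE M21 annotation of GRCm38.

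Counts were filtered with filterByExpr, normalized by TMM and tested with edgeR 4.0.16 in R 4.3.3, and adjusted by Benjamini-Hochberg over 21236 genes. DESeq2 1.42.0 with apeglm 1.24.0, the study's kind of test, and limma 3.58.1 were alternatives. Functions were tested on simulated data. No library was a copy of another (chi-square per degree of freedom at least 20.5), and the common biological coefficient of variation was 37.4%. Each library is a separate mouse by its label. Members, lists and tests were chosen with earlier results of these data known. The named genes are the members, *Glis2*, 7 preset genes and the 4 of each list with the smallest p, and *B4galt1*, *Odam*, *Chst4*, *Fut7*, *Ccl21a*, *Madcam1*, *Kit*, *Aldh1a3*, *Itgb3*, *Epcam*, *Cldn7*, *Foxa1*, *Cited1*, *Ptprc*, *Cd79a*, *Cd3e*, *Cd3g*, *Ms4a1*, *Ltf* and *Wfdc18* were added after their values were seen. Intervals and floors cover the spread between mice or counting error only. The summed level of 1 marker list is not reported here.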

Additional observations from a re-analysis of the deposited data

How the results depend on the processing

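The count of called genes was 0 in edgeR (1130 at an unadjusted p under 0.05), 45 with DESeq2 and apeglm, 40 without a filter on low counts and 1 with log2(TPM + 0.1) in limma. It stayed at 0 with DESeq2 size factors, with log2(TPM + 1) in limma, with a replicate block and without each mouse in turn. Among the milk protein genes 1 was called, *Glycam1*, without the filter, and 0 in the other fits across all genes. The cause was not tested. The replicate numbers were not taken as a pairing. Deviations of WT and KO libraries with the same number correlated at −0.022, 0.17 and 0.023, and those with different numbers from −0.19 to 0.186. With so few mice these values cannot show or exclude a pairing. With the replicate block 1287 genes had an unadjusted p under 0.05. Of 105 combinations of a member's fold change and an alternative, 95 kept the direction with no change of call, 9 turned direction and 1, *Glycam1* without the filter, became called. The 14 with the marker scalings chosen after seeing the data have no adjusted p. *Csn1s1* became 0.042 with the replicate block, 0.026 with log2(TPM + 1), 0.034 with log2(TPM + 0.1) and 0.17 relative to progenitor markers, and ran from −0.28 to 0.42 without 1 mouse. *Muc1* ran from −0.65 to 0.22 without 1 mouse. DESeq2 folds were compared before shrinkage, since apeglm shrank the fold of each of the 7 members to near 0 (*Glycam1* from 3.84 to 1.36e-06, *Mfge8* from 0.33 to −5.04e-06). Rescaling TPM without Gm23935 moved the median of *Mfge8* from 86.6 to 540.3 by construction. The STAT consensus lay upstream of the start site in 3 promoters. The caseins held a median of 0.0215% of all counts and 0.0270% of protein-coding counts. Depth limits *Csn2*, *Csn1s2a* and *Wap*, where 0 counts allow up to 3 per library.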

Other observations

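The secreted milk proteins *Ltf* and *Wfdc18* were chosen from the list of other milk genes after their values were seen. *Ltf*, the iron-binding lactoferrin of milk, stood at 41.4, 325.8 and 190.3 CPM in WT and 157.9, 372.1 and 50.7 CPM in KO libraries. *Wfdc18*, a small secreted protein of the whey acidic protein family, stood at 79.3, 339.2 and 161.1 CPM in WT and 129.8, 229.7 and 54.0 CPM in KO libraries. In both genes replicate 2 was the highest library of each genotype, and the genotypes overlapped. It was also the highest for the progenitor marker *Kit* (338.9 CPM in WT and 394.3 CPM in KO) and for each gene of the luminal list. For the progenitor marker *Itgb3* replicate 2 was the lowest library of each genotype (41.5 CPM in WT and 48.2 CPM in KO). *Ltf* differed by 0.06 and *Wfdc18* by −0.49 on the log2 scale, with adjusted p of 0.998 and 0.966 in edgeR.

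The ratio of *Csn3* to *Lalba* was 253, 96.5 and 112 counts per *Lalba* count in WT and 229, 212 and 319 in KO libraries. The ratio overlapped between genotypes through WT replicate 1.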
